A study of Homo sapiens with 18 samples.

Results

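The RNA of 7 genes with established roles in pancreatic ductal carcinoma was followed in PANC-1 cells in which the double-stranded RNA-activated kinase PKR had been silenced or inhibited. They were the RAS genes NRAS and HRAS, the oncogene MYC, the chromatin remodelling gene ARID1A, and the lineage transcription factors SOX9, GATA6 and KLF5. The members were chosen by gene symbol, and all 7 of 7 were among the 26485 genes listed in each of the 2 deposited tables. PANC-1 is an established epithelial line from a human pancreatic ductal carcinoma. One table held 9 libraries of transfected cells, which had received PKR siRNA 1, PKR siRNA 2 or a control siRNA, and the other 9 libraries of cells given the solvent DMSO, 400 nM C16 or 800 nM C16. C16 is an inhibitor of the PKR kinase. Each of the 6 groups had 3 libraries, and RNA was taken 72 h after transfection or treatment. The siRNA libraries were labelled run 1 and the C16 libraries run 2, and what a run stands for is not given in the sources used here. Each table was normalized on its own. A difference of run and one of siRNA against inhibitor therefore cannot be told apart, and levels were compared only within a table. The 3 control siRNA libraries serve both knockdowns and the 3 DMSO libraries both doses of C16, so comparisons of a table share their controls. Whether the 3 libraries of a group came from separate cultures is not given in the sources used here, so the p-values measure the spread between these libraries, which may be technical.

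RAS proteins are small GTPases that switch on a cascade of kinases that ends in ERK when they bind GTP, and pancreatic ductal carcinoma is known for its dependence on signalling from this family. MYC is a transcription factor that pairs with MAX at E-box sequences and drives genes of ribosome production and growth. ARID1A is a DNA-binding subunit of the SWI/SNF remodelling complex that is often lost in this cancer. SOX9 marks duct cells and their progenitors, GATA6 marks the classical tumour subtype, and KLF5 is a zinc finger factor of epithelial cells.

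The RAS genes are related in sequence, so the ends of their coding regions are shown first to make plain where reads could tell them apart. Each coding region had 570 bases, of which 416 (73.0%) were identical at the same position, and the longest run shared at the same position was 14 bases. The last 75 bases, which encode the variable tail and the CAAX box that receives the lipid anchor, were identical at 37 positions (49.3%), against 76.6% before them. They are printed from hg38, 5′ to 3′ on the coding (minus) strand, with the 4 codons of the CAAX box in capitals, at chr1:114708535-114708609 for NRAS and at chr11:532636-532710 for HRAS.
NRAS: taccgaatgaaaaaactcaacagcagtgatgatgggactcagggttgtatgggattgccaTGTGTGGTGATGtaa
HRAS: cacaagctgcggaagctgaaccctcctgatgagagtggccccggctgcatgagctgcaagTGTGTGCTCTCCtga
In GENCODE release 44, 0 of the 75-base windows of the canonical transcript of any of the 7 genes occurred in a transcript of another gene, and 75 bases is the read length. In the exons given in the tables, 0% of the bases of each of the 7 genes overlapped another gene.

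The promoters of the RAS genes are shown because these genes took different courses with the siRNAs and both fell with 800 nM C16. They run from 250 bases before the start site to 50 after it, as given by RefSeq for GRCh38.p14, and are printed 5′ to 3′ on the minus strand, at chr1:114716722-114717021 for NRAS and at chr11:535527-535826 for HRAS. Capitals mark matches, on either strand, to the E-box CACGTG, the GC box GGGCGG and the CCAAT box.
NRAS: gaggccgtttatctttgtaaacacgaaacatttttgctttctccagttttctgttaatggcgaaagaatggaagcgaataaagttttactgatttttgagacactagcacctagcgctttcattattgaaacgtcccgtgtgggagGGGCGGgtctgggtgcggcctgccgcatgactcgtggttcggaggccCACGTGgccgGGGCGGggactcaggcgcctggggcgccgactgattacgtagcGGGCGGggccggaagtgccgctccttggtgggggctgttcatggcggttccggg
HRAS: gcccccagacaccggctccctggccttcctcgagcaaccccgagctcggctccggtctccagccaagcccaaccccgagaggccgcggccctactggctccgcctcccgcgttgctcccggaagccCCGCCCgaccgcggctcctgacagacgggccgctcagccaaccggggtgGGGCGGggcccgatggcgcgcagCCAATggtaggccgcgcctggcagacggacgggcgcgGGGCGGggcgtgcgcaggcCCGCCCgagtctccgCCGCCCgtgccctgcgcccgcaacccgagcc
NRAS held 1 E-box and 3 GC boxes, and HRAS 5 GC boxes and 1 CCAAT box. Of all 27305 RefSeq promoters of this length, 7.43% held the E-box, 44.6% the GC box and 35.7% the CCAAT box. Among the genes tested here, 10.7% had an E-box and 72.9% a GC box. Promoters of 5 of the 7 genes were in the RefSeq table, and MYC and SOX9 were not.

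Reads assigned to genes numbered 1512940 to 1873906 per siRNA library (median 1739550) and 894145 to 1474308 per C16 library (median 1070960). Values are normalized counts, in which 1 read counted as 0.761 to 1.22 depending on the library. EIF2AK2, the gene of PKR, stood at 95.5, 93.5 and 103.3 normalized counts in the control siRNA libraries. With PKR siRNA 1 its values were 10.0, 13.6 and 9.65, and PKR siRNA 2 left 7.96, 8.58 and 9.41. The knockdown therefore left 0.114 and 0.0888 times the control mean. C16 acts on the protein, and EIF2AK2 differed from DMSO by -0.22 on the log2 scale at 400 nM (adjusted p = 0.35, limma) and by 0.01 at 800 nM (adjusted p = 0.974). Of the ductal epithelial markers listed to check the cell type, 7 of 10 averaged at least 10 over the siRNA libraries and 6 of 10 over the C16 libraries. None of 8 acinar and 6 endocrine markers reached that mean, and their summed levels were at most 2.82 and 3.22 in any library.

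HRAS had the highest level per length among the 7 genes. In control siRNA libraries it stood at 107.3 ± 1.88 normalized counts per kb of exon (SD, n = 3). NRAS followed at 57.9 ± 7.02, MYC at 56.7 ± 3.13, ARID1A at 56.3 ± 7.00 and SOX9 at 53.5 ± 3.75, and neighbours among these 4 differed by less than the larger of their SDs. KLF5 at 1.05 ± 0.890 and GATA6 at 0.821 ± 0.555 were close to the lower limit of what these libraries could show, and did not differ beyond their spread. The order began and ended alike in DMSO, with HRAS at 105.1 ± 3.34 per kb, MYC at 35.3 ± 6.15, SOX9 at 33.7 ± 3.15, NRAS at 31.9 ± 0.925, ARID1A at 30.9 ± 2.198, KLF5 at 0.545 ± 0.0557 and GATA6 at 0. There too the 4 genes from MYC to ARID1A differed between neighbours by less than the larger SD. The tables count the 1234 exon bases of HRAS again on an alternate contig of chromosome 11, and the length used here is that of 1 copy. Whether the alignment index held that contig is not given in the sources used here, and the effect of a loss of multiply mapped reads on the HRAS level was not tested.

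**Figure D1:**
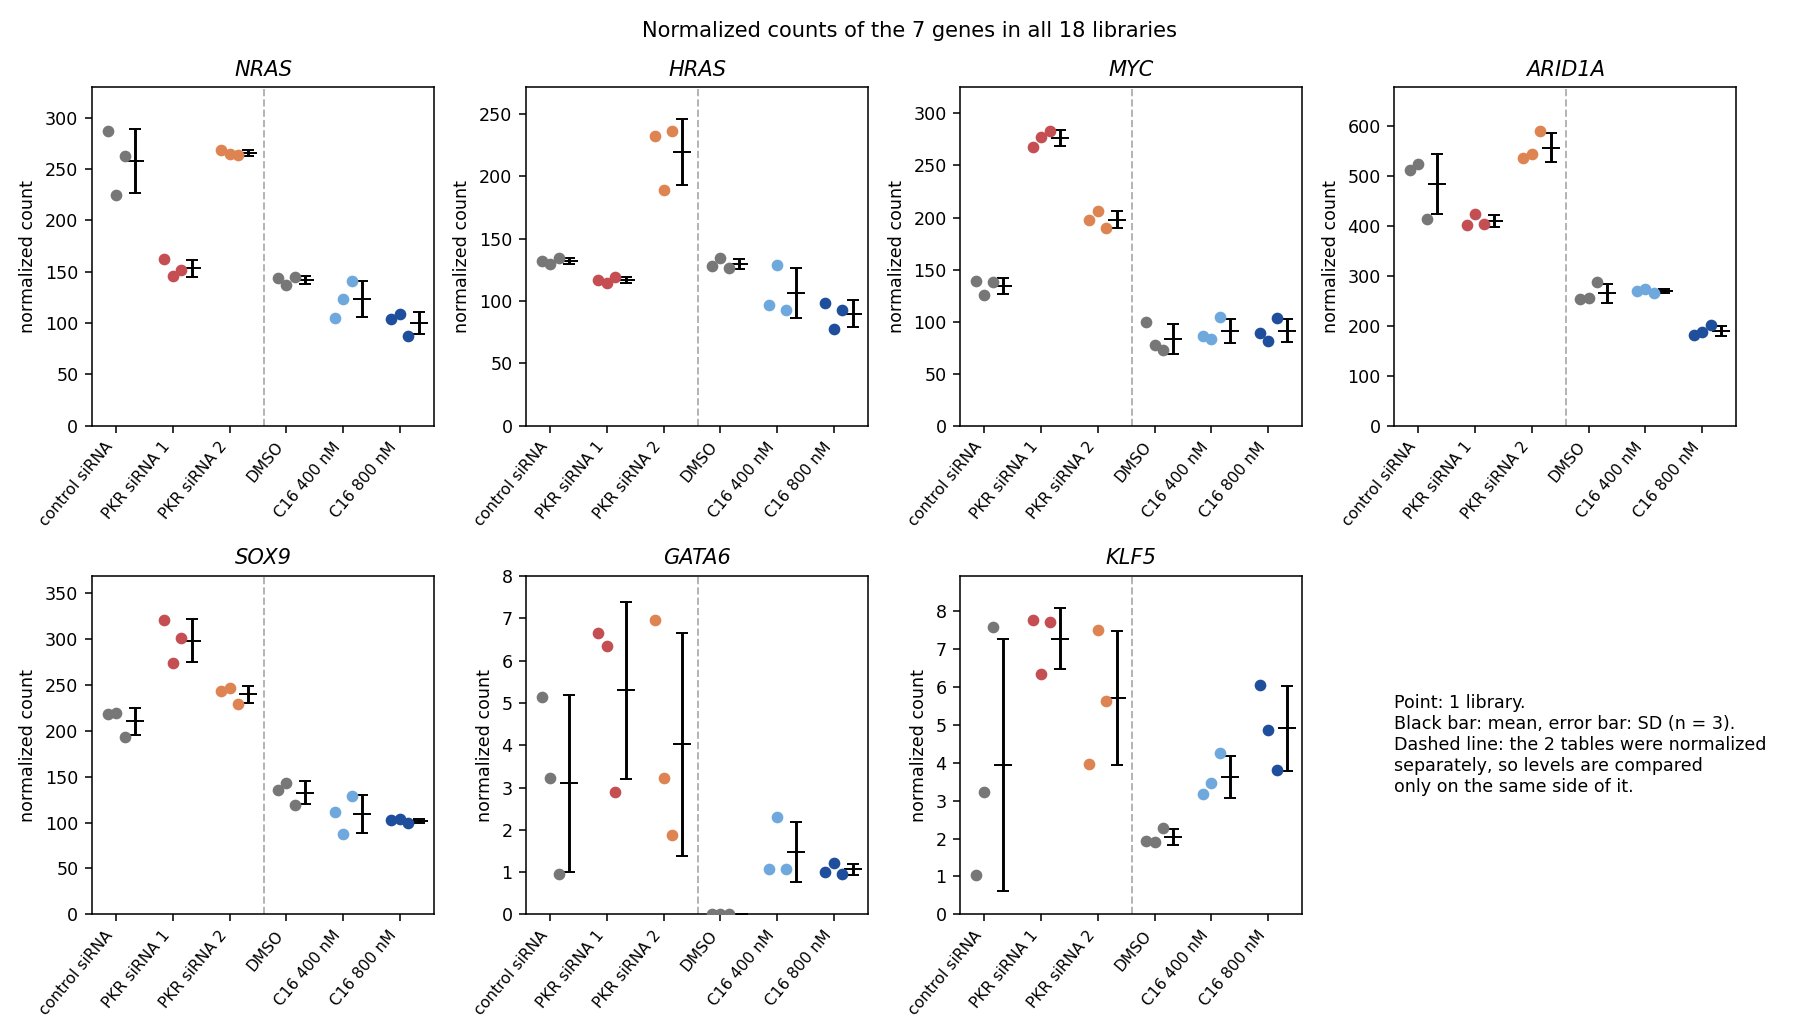
Normalized counts (y axis, linear, from 0) of the 7 genes in the 6 groups (x axis), with 1 point per library and the mean and SD (n = 3) beside the points. MYC in PKR siRNA 1 libraries lies between 267.7 and 282.7, above all control libraries, while GATA6 and KLF5 stay below 8 in all 18 libraries.

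Tests of change used limma on log2 (normalized count + 1), over all genes that averaged at least 10 in a table, with Benjamini-Hochberg adjustment, and a gene was called at an adjusted p under 0.05. NRAS, HRAS, MYC, ARID1A and SOX9 passed the minimum in both tables, and GATA6 and KLF5 in neither. PKR siRNA 1 raised MYC and SOX9 and lowered NRAS and ARID1A, so 4 of the 5 tested members were called, against 45.0% of all 10593 genes tested. PKR siRNA 2 raised HRAS, MYC and ARID1A, 3 of 5, where 47.3% of all genes were called and 22.1% called higher. With 400 nM C16, 0 of 5 were called, against 26.5% of all 9963 genes. HRAS and SOX9 had an unadjusted p under 0.05 in limma there, edgeR on the recovered reads called 1 of 5, HRAS, against 27.9% of all genes, and DESeq2 called 0. With 800 nM C16, NRAS, HRAS, ARID1A and SOX9 were lower, 4 of 5, where 44.9% of all genes were called and 22.6% called lower. Read against all genes, the members' share was higher with both siRNAs and with 800 nM C16 and lower with 400 nM C16, and with 5 members tested each of these differences comes to 1 or 2 genes. Between the siRNAs all 5 members were called, where 57.0% of all genes were, and between the doses 1 was, where 14.3% were. By edgeR on the recovered reads 46.2% of all genes were called with PKR siRNA 1, 48.5% with PKR siRNA 2, 57.9% between the siRNAs, 46.4% with 800 nM C16 and 13.6% between the doses. The members called were 4, 4 (SOX9 in addition), 5, 4 and 1 in that order. Past 1.5-fold were MYC (up) and NRAS (down) with PKR siRNA 1, where 21.1% of all genes were, HRAS with PKR siRNA 2, where 23.5% were, and 0 members with either dose of C16, where 12.5% and 25.7% were. NRAS and HRAS were past it between the siRNAs, where 31.7% of all genes were, and 0 members between the doses, where 5.09% were.

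**Figure D2:**
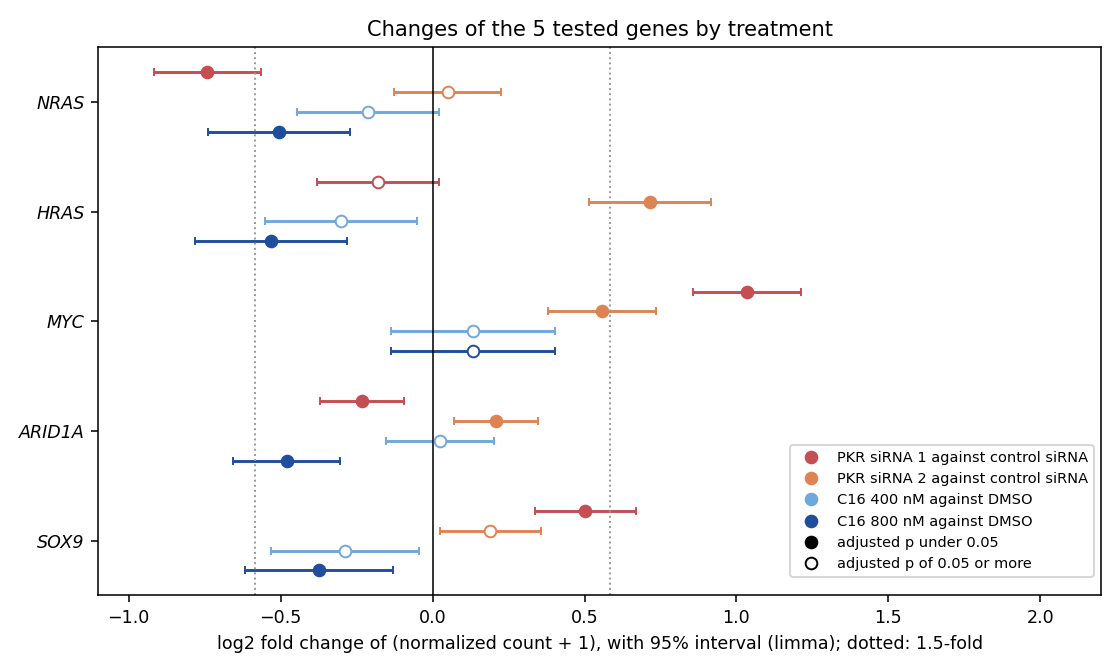
Log2 fold changes of the 5 tested genes (x axis, scale of normalized count + 1) with 95% intervals from limma, in each treatment against its control, with filled points at an adjusted p under 0.05 and dotted lines at 1.5-fold. The intervals of MYC lie right of 0 for both siRNAs and cross 0 for both doses of C16, and those of NRAS, HRAS, ARID1A and SOX9 at 800 nM C16 all lie left of 0.

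NRAS (chr1:114704464-114716894, minus strand, 7 exons) fell with PKR siRNA 1 and with 800 nM C16. Its normalized counts were 286.5, 224.5 and 262.6 in control libraries. PKR siRNA 1 libraries held 162.2, 146.0 and 151.5, and PKR siRNA 2 libraries 268.6, 264.9 and 263.3. All PKR siRNA 1 libraries lay below all others of that table, while those of PKR siRNA 2 lay within the control range. Groups did not overlap in 51.7% of all genes tested with PKR siRNA 1 and in 60.6% between the siRNAs. PKR siRNA 1 gave a log2 fold change of -0.74 ± 0.088 (SE) (adjusted p = 3.29e-11, limma), a mean 0.594 times that of the control. With PKR siRNA 2 it was 0.05 (95% interval -0.13 to 0.22, adjusted p = 0.675), and that value turned to -0.05 without control siRNA replicate 2. The C16 table gave 143.8, 137.1 and 144.7 in DMSO, 105.3, 123.4 and 140.4 at 400 nM, and 103.9, 108.5 and 87.8 at 800 nM. The 800 nM libraries were all below DMSO and the 400 nM libraries spread from the one level to the other. Between 800 nM and DMSO 51.8% of all genes tested had groups that did not overlap. NRAS differed from DMSO by -0.21 ± 0.117 at 400 nM (adjusted p = 0.178) and by -0.51 ± 0.117 at 800 nM (adjusted p = 0.000303). The doses differed from each other by -0.29 (adjusted p = 0.0823), and without 400 nM C16 replicate 1 by -0.40 (adjusted p = 0.0354).

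HRAS (chr11:532242-535550, minus strand, 6 exons) rose with PKR siRNA 2 and fell with 800 nM C16. Control libraries held 132.5, 130.0 and 134.6 normalized counts, PKR siRNA 1 libraries 116.6, 114.3 and 119.6, and PKR siRNA 2 libraries 232.8, 188.7 and 236.1. The 3 groups did not overlap in HRAS, with PKR siRNA 1 just under the control and PKR siRNA 2 well above it. Groups of 54.3% of all genes tested did not overlap with PKR siRNA 2, and of 60.6% between the siRNAs. The rise with PKR siRNA 2 was 0.72 ± 0.101 (adjusted p = 6.13e-09), a mean 1.66 times that of the control. The difference with PKR siRNA 1 was -0.18 (95% interval -0.38 to 0.02, adjusted p = 0.145), so its separation from the control was not called, and 51.7% of all genes tested had groups that did not overlap in that comparison. DMSO libraries held 128.3, 134.3 and 126.4, those at 400 nM 96.8, 129.2 and 92.6, and those at 800 nM 98.9, 78.0 and 92.6. Replicate 2 at 400 nM was at the DMSO level while the other two were near the 800 nM libraries. HRAS differed from DMSO by -0.30 ± 0.124 at 400 nM (adjusted p = 0.0648), by -0.45 there without replicate 2 of that dose (adjusted p = 0.0114), and by -0.53 ± 0.124 at 800 nM (adjusted p = 0.000358). Between the doses it differed by -0.23 (adjusted p = 0.22).

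The RAS genes thus took separate courses with the siRNAs, each called in 1 of the 2 knockdowns, and both were called lower at 800 nM C16. Between PKR siRNA 2 and PKR siRNA 1 both were higher with the former, NRAS by 0.79 ± 0.088 (adjusted p = 1.63e-12) and HRAS by 0.89 ± 0.101 (adjusted p = 2.72e-12). A list of 35 other genes of the RAS cycle and its effectors, from exchange factors and GTPase-activating proteins to MEK, ERK and the enzymes that lipidate RAS, was read beside them. With PKR siRNA 1, 9 of 33 tested list genes were called higher and 8 lower (median log2 fold change -0.14, against -0.01 over all genes). RASAL2, a GTPase-activating protein, rose by 0.70 ± 0.092, while RALB, a RAS-like GTPase downstream of RAS, fell by 0.65 on the log2 scale. With PKR siRNA 2, 10 of 33 were higher and 8 lower (median -0.02, against -0.01). ZDHHC9, a palmitoyltransferase for NRAS and HRAS proteins, fell by 1.32 and MAP2K1, which encodes MEK1, by 0.93, while MRAS rose by 1.09 ± 0.372. With 400 nM C16, 8 of 32 were higher and 0 lower (median 0.07, against 0.00), with RASAL2 up by 0.74 ± 0.125. With 800 nM, 8 were higher and 6 lower (median 0.03, against 0.00), where the RAS relative RRAS fell by 1.504 and ARAF by 0.96 and RRAS2 and ZDHHC9 rose by 0.74 and 0.72. Of all genes, 14.6% were called higher and 11.9% lower at 400 nM. At an unadjusted p under 0.05 limma gave 2 lower list genes at that dose, and edgeR and DESeq2 called 0. In the other 3 treatments the shares called were within 10 percentage points of those of all genes in either direction.

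MYC (chr8:127736069-127741434, plus strand, 3 exons) rose with both siRNAs and was not called at either dose of C16. It stood at 138.6, 125.7 and 138.4 normalized counts in control libraries. The PKR siRNA 1 libraries held 267.7, 277.5 and 282.7 and the PKR siRNA 2 libraries 197.9, 205.9 and 190.0. The 3 groups were far apart, with PKR siRNA 2 in the middle. Among all genes tested, 51.7% had groups that did not overlap with PKR siRNA 1, 54.3% with PKR siRNA 2 and 60.6% between the siRNAs. PKR siRNA 1 gave a log2 fold change of 1.04 ± 0.089 (adjusted p = 8.33e-17), a mean 2.06 times that of the control. With PKR siRNA 2 it was 0.56 ± 0.089 (adjusted p = 1.89e-07), a mean 1.47 times that of the control, and the siRNAs differed from each other by -0.48 ± 0.089 (adjusted p = 3.92e-06). In the C16 table MYC stood at 100.1, 77.1 and 73.1 in DMSO, at 86.2, 83.0 and 104.3 at 400 nM, and at 88.8, 81.7 and 103.1 at 800 nM. These groups overlapped throughout. Both doses gave a difference of 0.13 from DMSO, with 95% intervals of -0.14 to 0.40 (adjusted p = 0.506 at 400 nM and 0.439 at 800 nM). With PKR siRNA 1 the 95% interval was 0.86 to 1.21. With PKR siRNA 2 it was 0.38 to 0.74, which overlapped the intervals of both doses. The difference between the kinds of treatment was not tested across the tables.

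MYC works through dimers with MAX, against which the MXD proteins and MNT compete, and its protein is removed after marking by the ubiquitin ligase subunit FBXW7. Of 18 tested partners and regulators, 5 were called higher and 5 lower with PKR siRNA 1 (median 0.05, against -0.01 over all genes), and 6 and 4 with PKR siRNA 2 (median 0.09, against -0.01). Of 17 in the C16 table, 2 and 3 were called at 400 nM (median 0.02, against 0.00) and 2 and 5 at 800 nM (median -0.20, against 0.00). Among all genes, PKR siRNA 1 had 21.1% called higher and 23.9% lower, PKR siRNA 2 had 22.1% and 25.2%, C16 at 400 nM had 14.6% and 11.9%, and C16 at 800 nM had 22.3% and 22.6%. PKR siRNA 1 raised ZBTB17, which encodes the MYC partner MIZ1, by 0.84 ± 0.145 and RUVBL1, a cofactor ATPase, by 0.69 ± 0.079, and lowered the kinase gene PIM1 (-1.13 ± 0.153) and MLXIP (-1.07 ± 0.077). PKR siRNA 2 raised the competitors MXD4 and MNT, by 1.499 ± 0.179 and 1.10 ± 0.143. C16 lowered MXD4 (-0.85 ± 0.174 at both doses) and raised MAX by 0.65 ± 0.235 and 0.72 ± 0.235 and FBXW7 by 0.72 ± 0.277 and 0.75 ± 0.277. These last were the 2 list genes called higher at each dose, and 0 were called higher with DESeq2 or without DMSO replicate 3. MLXIP fell by 0.85 at 400 nM and by 1.21 at 800 nM.

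A list of 35 known MYC target genes, most of which serve ribosome production, was counted beside MYC in each treatment. With PKR siRNA 1, 17 of 34 tested were called higher and 0 lower (median 0.20, against -0.01 over all genes), where 21.1% of all genes were called higher. With PKR siRNA 2, which also raised MYC, 8 were higher and 13 lower (median -0.04, against -0.01), where 22.1% of all genes were called higher and 25.2% lower. With 400 nM C16, 8 of 32 were higher and 2 lower (median 0.14, against 0.00), where 14.6% of all genes were called higher and 11.9% lower. DESeq2 called 4 higher there, and the 2 lower became 0 without DMSO replicate 1 or 400 nM replicate 1 and 1 without DMSO replicate 2 or 3 or 400 nM replicate 3. With 800 nM C16, where MYC was not called, 20 of 32 were higher and 1 lower (median 0.31, against 0.00), and 22.3% of all genes were called higher. The count lower became 2 without DMSO replicate 3. At an unadjusted p under 0.05 limma gave 1 lower target with PKR siRNA 1, edgeR and DESeq2 on the recovered reads called 0, and without control siRNA replicate 2 limma called 1. The largest rises with PKR siRNA 1 were those of TMEM97, at 1.148 ± 0.125, and DKC1, a component of small RNPs that modify rRNA, at 0.73 ± 0.063. DKC1 rose with PKR siRNA 2 as well, by 0.67 ± 0.063, while RRS1, a ribosome assembly factor, fell by 0.77 on the log2 scale. The largest with 800 nM C16 were the nucleolar genes NOP16 and NOLC1, at 0.84 ± 0.138 and 0.84 ± 0.075, and AIMP2, part of the aminoacyl-tRNA synthetase complex, was the target that fell, by 1.19. Between the doses 10 targets were higher and 1 lower at 800 nM, where 14.3% of all genes were called in either direction. The count higher became 5 without 400 nM replicate 1 or without 800 nM replicate 3, and 6 without 800 nM replicate 2. Promoters were given for 29 of the targets, and 14 of them (48.3%) held the E-box CACGTG, against 10.7% of the genes tested. These lists were written with results of these data known, and no test was made of them as sets.

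**Figure D3:**
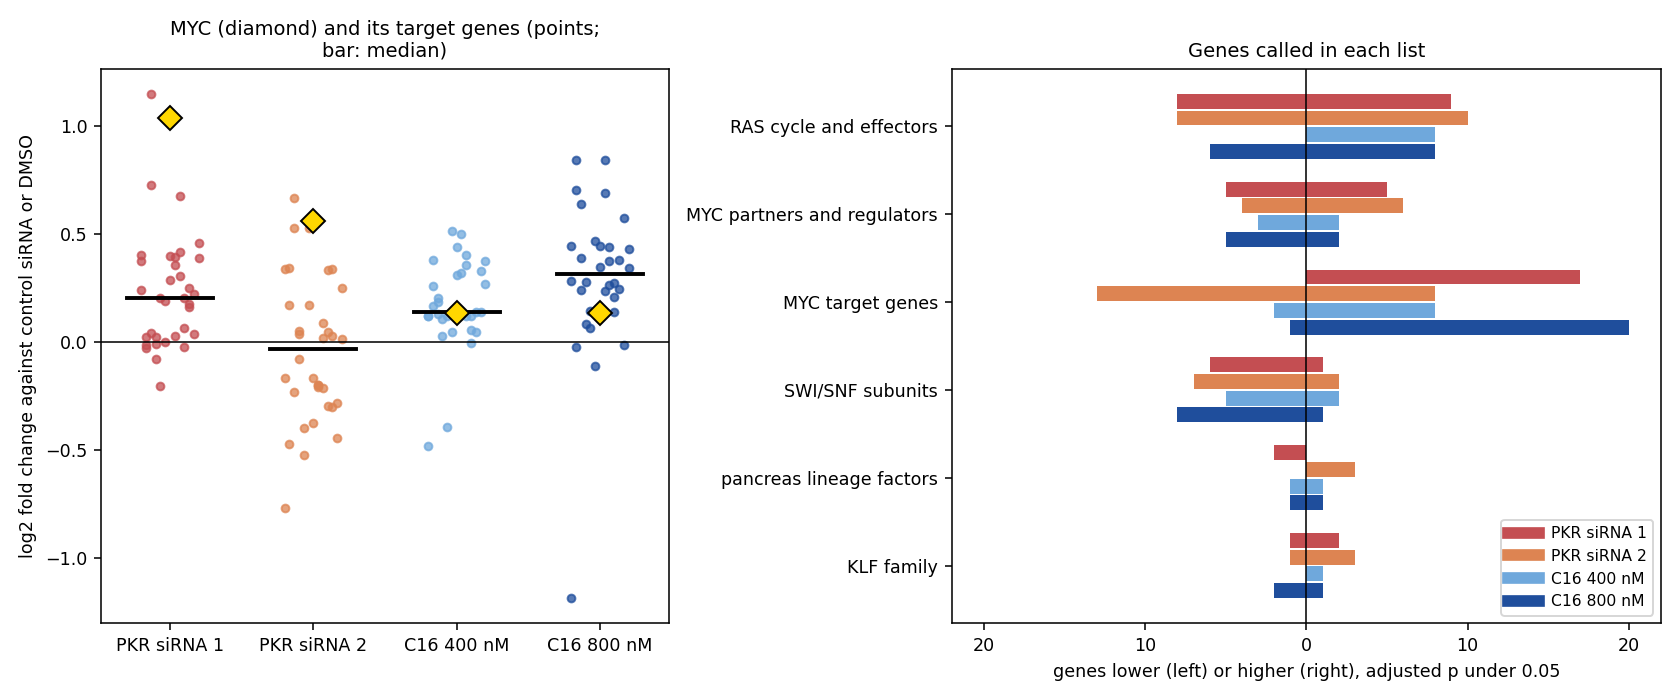
Left, log2 fold changes (y axis, linear) of MYC (diamond) and of its tested target genes (points, with the median as a bar) in each treatment against its control. Right, the number of genes of each list called lower (left of 0) or higher (right of 0). The MYC diamond lies above the median of the targets for both siRNAs and below it for 800 nM C16, where 20 targets were called higher.

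ARID1A (chr1:26696031-26782110, plus strand, 20 exons) fell with 800 nM C16, and its changes with the siRNAs were small and opposite. Its normalized counts were 511.4, 524.3 and 414.3 in control libraries. PKR siRNA 1 libraries held 401.0, 422.7 and 404.3, and PKR siRNA 2 libraries 535.1, 543.6 and 588.7. Control replicate 3 lay among the PKR siRNA 1 libraries, and PKR siRNA 2 lay above all others. Groups did not overlap in 54.3% of all genes tested with PKR siRNA 2 and in 60.6% between the siRNAs. PKR siRNA 1 gave a log2 fold change of -0.23 ± 0.069 (adjusted p = 0.0043) and PKR siRNA 2 one of 0.21 ± 0.069 (adjusted p = 0.0102). Each call held in 7 of the fits that left out 1 library and was lost in 2. The first became -0.19 (adjusted p = 0.0539) without control replicate 1 and -0.17 (adjusted p = 0.0672) without control replicate 2, and the second 0.10 (adjusted p = 0.279) without control replicate 3 and 0.17 (adjusted p = 0.0784) without PKR siRNA 2 replicate 3. The difference between the siRNAs was 0.44 ± 0.069 (adjusted p = 8.73e-08). In the C16 table ARID1A stood at 253.6, 255.2 and 287.1 in DMSO, at 270.1, 273.3 and 264.9 at 400 nM and at 180.5, 187.7 and 201.3 at 800 nM. The 400 nM libraries lay within the DMSO range and the 800 nM libraries below both groups. Among all genes tested, 51.8% had groups that did not overlap between 800 nM and DMSO, and 30.4% between the doses. ARID1A differed from DMSO by 0.02 (95% interval -0.15 to 0.20, adjusted p = 0.867) at 400 nM and by -0.48 ± 0.088 (adjusted p = 8.85e-06) at 800 nM, a mean 0.716 times that of DMSO. Of the 5 tested members it was the one called between the doses, at -0.50 ± 0.088 (adjusted p = 2.86e-05), where 14.3% of all genes were called.

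The SWI/SNF complex joins ARID1A or ARID1B, or in another form ARID2 and PBRM1, to an ATPase encoded by SMARCA4 or SMARCA2 and to a set of core subunits. Of 23 other subunits tested, 1 was called higher and 6 lower with PKR siRNA 1 (median -0.13, against -0.01 over all genes), and 2 and 7 with PKR siRNA 2 (median 0.00, against -0.01). With C16, 2 were higher and 5 lower at 400 nM (median -0.22, against 0.00) and 1 and 8 at 800 nM (median -0.19, against 0.00). Called lower were 23.9% and 25.2% of all genes with the siRNAs and 11.9% and 22.6% with the C16 doses. Called higher were 21.1% and 22.1% of all genes with the siRNAs and 14.6% and 22.3% with the C16 doses. PHF10 fell by 1.14 with PKR siRNA 1. DPF1, a subunit known from neurons, fell by 1.65 and SMARCA2 by 0.79 with PKR siRNA 2, whereas DPF1 rose by 1.501 ± 0.276 and 1.54 ± 0.276 with the C16 doses. At 800 nM SS18 fell by 0.70 and ARID1B, the alternative to ARID1A, by 0.61. Between the siRNAs ARID1B was higher with PKR siRNA 2 by 1.02 ± 0.082, the same direction as ARID1A.

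SOX9 (chr17:72121020-72126419, plus strand, 3 exons) rose with PKR siRNA 1 and fell with 800 nM C16. Control libraries held 218.7, 219.2 and 193.4 normalized counts, PKR siRNA 1 libraries 321.0, 273.9 and 301.0, and PKR siRNA 2 libraries 243.7, 246.6 and 229.5. The 3 groups did not overlap, with PKR siRNA 2 in the middle. Of all genes tested, groups did not overlap in 51.7% with PKR siRNA 1, in 54.3% with PKR siRNA 2 and in 60.6% between the siRNAs. PKR siRNA 1 gave a log2 fold change of 0.50 ± 0.083 (adjusted p = 4.81e-07) and PKR siRNA 2 one of 0.19 ± 0.083 (adjusted p = 0.0527), and the siRNAs differed by -0.31 ± 0.083 (adjusted p = 0.000932). The value for PKR siRNA 2 was at the edge of the threshold, and edgeR on the recovered reads called it (0.21, adjusted p = 0.0377). DMSO libraries held 136.0, 142.9 and 118.8, those at 400 nM 111.7, 87.6 and 128.7, and those at 800 nM 102.9, 103.6 and 99.2. The 800 nM libraries lay close together below DMSO, and 1 library at 400 nM lay within the DMSO range. Between 800 nM and DMSO the groups of 51.8% of all genes tested did not overlap. SOX9 differed from DMSO by -0.29 ± 0.122 at 400 nM (adjusted p = 0.071) and by -0.37 ± 0.122 at 800 nM (adjusted p = 0.0101). The call at 800 nM was lost without DMSO replicate 2 (-0.32, adjusted p = 0.0653), and SOX9 was called at 400 nM without DMSO replicate 3 (-0.36, adjusted p = 0.0382) or without 400 nM replicate 3 (-0.41, adjusted p = 0.0194). Between the doses it differed by -0.08 (adjusted p = 0.705).

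The summed level of the ductal epithelial markers differed between the groups in which SOX9 differed, and was lower with PKR siRNA 1, where SOX9 rose. Over 10 genes, among them keratins, EPCAM and CDH1, it was 5413 to 5508 in control libraries, 3074 to 3312 in those of PKR siRNA 1 and 9634 to 10280 in those of PKR siRNA 2, and it was 7202 to 7587 in DMSO, 6065 to 6577 at 400 nM and 5194 to 5708 at 800 nM. The markers did not move as one: PKR siRNA 1 lowered 6 of the 7 tested, PKR siRNA 2 raised 4 and lowered 2, and each dose of C16 raised 1 and lowered 3 of 6. KRT23 was at 0 in every library, as were CFTR with the siRNAs and SPP1 with DMSO and C16. In bulk RNA, fewer cells with a transcript and less of it per cell cannot be told apart, and the part of this shift in the SOX9 values was not tested. Of 25 other pancreas lineage factors, 6 were tested with the siRNAs and 5 with C16. PKR siRNA 1 lowered SOX4 (-1.03 ± 0.088) and the epithelial factor ELF3 (-1.02 ± 0.268), and PKR siRNA 2 raised the GATA6 relative GATA4 by 1.10 ± 0.191 and ELF3 by 1.03 ± 0.268. C16 lowered SOX4 (-0.76 ± 0.132 and -0.98 ± 0.132) and raised HES1, an effector of Notch signalling, by 0.73 ± 0.232 and 0.61 ± 0.232 at 400 and 800 nM. The call of HES1 was lost at both doses with DESeq2 and without DMSO replicate 2. PKR siRNA 1 gave 0 called higher and 2 lower (median 0.06, against -0.01 over all genes), with 2 higher at an unadjusted p under 0.05 in limma, 2 by edgeR and 0 by DESeq2. PKR siRNA 2 gave 3 higher and 0 lower (median 0.29, against -0.01), with 1 lower at an unadjusted p under 0.05 and 0 by edgeR and DESeq2. Each dose of C16 gave 1 higher and 1 lower, with medians of -0.31 and -0.42 against 0.00. The shares of all genes were again 21.1% higher and 23.9% lower for the first siRNA, 22.1% and 25.2% for the other, 14.6% and 11.9% at 400 nM, and 22.3% and 22.6% at 800 nM. SOX4 was called lower in each of the treatments in which SOX9 was called, the one in which SOX9 rose and the one in which it fell.

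GATA6 (chr18:22169437-22202528, plus strand, 7 exons) was barely read in PANC-1. The control siRNA libraries held 5, 3 and 1 reads of it, PKR siRNA 1 libraries 6, 7 and 3, and PKR siRNA 2 libraries 7, 3 and 2. The groups overlapped. In the C16 table each of the 3 DMSO libraries held 0 reads, which allows up to 3 reads in a library by counting error alone, and the libraries at 400 nM held 1, 2 and 1 and those at 800 nM 1, 1 and 1. None of these exceeded the 3 reads that a count of 0 allows in a single library, and that limit was not applied to the sum over a group. No fold change is given because the DMSO mean was 0. Without the minimum on low values limma gave GATA6 an adjusted p of 0.0427 at 400 nM and 0.0763 at 800 nM, on 4 and 3 reads in all.

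KLF5 (chr13:73054976-73077542, plus strand, 5 exons) was as sparse. Control siRNA libraries held 1, 3 and 8 reads, PKR siRNA 1 libraries 7, 7 and 8, and PKR siRNA 2 libraries 4, 7 and 6, and the groups overlapped. DMSO libraries held 2, 2 and 3 reads, those at 400 nM 3, 3 and 4, and those at 800 nM 6, 4 and 4. On the normalized scale these were 1.94, 1.91 and 2.28 in DMSO, 3.19, 3.46 and 4.26 at 400 nM, and 6.05, 4.87 and 3.82 at 800 nM. Both doses lay above DMSO in all libraries, and the sums of reads were 7, 10 and 14. In the same comparisons 39.6% and 51.8% of all genes tested had groups that did not overlap. Without the minimum on low values the adjusted p of KLF5 was 0.53 at 400 nM and 0.187 at 800 nM, and with the siRNAs 0.157 and 0.389, so a change was not detectable at this depth. Of the other KLF genes, 9 were tested with the siRNAs and 8 with C16. Called higher and lower were 2 and 1 with PKR siRNA 1 (median 0.11, against -0.01 over all genes), 3 and 1 with PKR siRNA 2 (median 0.21, against -0.01), 1 and 0 at 400 nM C16 (median 0.01, against 0.00, with 1 lower at an unadjusted p under 0.05 in limma, 1 by edgeR and 0 by DESeq2) and 1 and 2 at 800 nM (median -0.24, against 0.00). The 2 lower at 800 nM became 0 with DESeq2, without the minimum on low values, without DMSO replicate 2 and without 800 nM replicate 3. The shares of all genes called higher and lower in these treatments were 21.1% and 23.9%, 22.1% and 25.2%, 14.6% and 11.9%, and 22.3% and 22.6%. KLF6, a widely expressed relative, rose by 0.84 ± 0.070 with PKR siRNA 1 and by 0.97 ± 0.070 with PKR siRNA 2, and KLF4 rose by 1.07 ± 0.218 and KLF12 fell by 0.97 with the former. KLF11 rose by 0.88 ± 0.180 with the latter. KLF10, which responds to TGF-beta, rose by 0.62 ± 0.122 and 0.72 ± 0.122 with the doses of C16.

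The genes whose profiles were most like those of the 5 tested members were sought among 5276 genes that averaged at least 50 in both tables, over 18 libraries with each table centred on its own mean. Pearson's r is given as a description. These libraries fall into 6 groups and share their normalization, so a high r mostly reflects the group means. Among the genes closest to NRAS were SDC4, a heparan sulfate proteoglycan (r = 0.95), and GLIS2 (r = 0.92). HRAS was closest to TNNT1 (r = 0.95), to IMPDH2 of guanine nucleotide synthesis (r = 0.94) and to ZNF236 (r = 0.93). MYC was closest to MORF4L2 (r = 0.92), the CDK subunit gene CKS1B (r = 0.92) and the phosphatase gene PPP2CA (r = 0.91), with lower r in the C16 libraries alone (0.42, 0.58 and 0.62). ARID1A was closest to the histone methyltransferase gene KMT2A (r = 0.93), COL5A2 (r = 0.91) and LAMA5 (r = 0.91). SOX9 was closest to C11orf58 (r = 0.88), VEZF1 (r = 0.87) and BTG1 (r = 0.87). Among the members themselves, r was 0.66 between NRAS and HRAS, 0.70 between HRAS and ARID1A and 0.69 between NRAS and ARID1A. MYC and SOX9 had r = 0.91 over the siRNA libraries and 0.04 over the C16 libraries, and NRAS and SOX9 -0.81 and 0.66.

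With 3 libraries against 3, the exact two-sided permutation test of the normalized counts cannot give a p under 0.1. It gave 0.1 wherever groups of a member did not overlap, 0.2 for ARID1A with PKR siRNA 1, 0.7 for NRAS with PKR siRNA 2 and 0.5 for MYC at each dose of C16. The limma fit is not bound by that limit, since it takes its p-values from a t distribution. Its estimate of the spread is shared over the 9 libraries of a table and over genes of like level.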

How the data were processed

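A directional kit was used on poly(A) RNA for all 18 libraries. Per the paper's methods and the submitters' processing notes, reads of 75 bases were mapped to hg38 with TopHat, counted with featureCounts and normalized with TCC by TMM, separately for the siRNA and the C16 libraries. The annotation release and the strand setting are not given in the sources used here. The deposited signal values were made by the authors by dividing the reads of each library by its factor, without a filter, and 100.0% of them corresponded to whole reads (within 0.02 reads), which were thereby recovered. The authors' files gave 0 columns without a sample. Replicate pairs differed by more than sampling noise (chi-square per degree of freedom 1.03 to 1.63, p under 0.05 in 18 of 18 pairs), so none were merged. Floors on reads cover counting error only, while the intervals from limma rest on the spread between libraries.

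Groups were taken from the sample labels. limma 3.58.1 (trend, two-sided, in R 4.3.3) was fitted to log2 (normalized count + 1) of all 9 libraries of a table, keeping genes that averaged 10 or more, with Benjamini-Hochberg adjustment over 10593 or 9963 genes. Each member was also given an exact permutation test. A 1.5-fold change and an adjusted p under 0.05 were the study's limits. The alternatives were pseudocounts of 0.5 and 5, no minimum or one of 30, median-of-ratios factors, fits with 2 groups alone, a block for the replicate number, recovered reads in edgeR 4.0.16 (quasi-likelihood) and in DESeq2 1.42.0, and leaving out each library. They were also run for the gene lists, an addition made after seeing the data. The test was tried on simulated data. Levels per kb used the exon lengths in the tables.

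The 7 members and all lists (RAS cycle and effectors, MYC partners and regulators, MYC target genes, SWI/SNF subunits, pancreas lineage factors, KLF family, classical and basal-like tumour genes, and markers of ductal, acinar, endocrine, fibroblast and stellate, and immune and endothelial cells) were chosen with earlier results of these data known. The lists were written from memory and not compared with published copies. From each list the text names up to 2 largest rises and 2 largest falls past both limits in a comparison, and for each member genes among the 3 with the highest r. Genes named beyond that were chosen after their values were seen. Some items are not reported here.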

Additional observations from a re-analysis of the deposited data

Results flagged for a closer look

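The effects of the 2 siRNAs against PKR differed in each of the 5 tested genes by limma's test of the difference between them. On the log2 scale PKR siRNA 2 exceeded PKR siRNA 1 by 0.44 for ARID1A (adjusted p = 8.73e-08), by 0.89 for HRAS (adjusted p = 2.72e-12) and by 0.79 for NRAS (adjusted p = 1.63e-12). It gave lower values by -0.48 for MYC (adjusted p = 3.92e-06) and by -0.31 for SOX9 (adjusted p = 0.000932). All 3 libraries of one siRNA lay on 1 side of all 3 of the other in each of these genes. Of all genes tested, 57.0% were called in the same comparison and 60.6% had groups that did not overlap. EIF2AK2 itself differed between the siRNAs by -0.31 (adjusted p = 0.282).

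Between the doses of C16 the effects on ARID1A differed by -0.50 (adjusted p = 2.86e-05), with the 3 libraries at 800 nM all below those at 400 nM. Groups did not overlap in 30.4% of all genes tested there, and 14.3% were called.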

How the results depend on the processing

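Of 270 values of the 5 members under alternatives other than leaving out a library, 265 kept their direction and side of the threshold. With 400 nM C16 the number of members called rose from 0 to 1 without the minimum on low values (GATA6, higher) and to 1 with edgeR (HRAS, -0.30, adjusted p = 0.0474). SOX9 with PKR siRNA 2 passed the threshold with a minimum mean of 30 (adjusted p = 0.0464), median-of-ratios rescaling (0.0403) and edgeR (0.0377), and SOX9 with 800 nM C16 missed it with DESeq2 (-0.38, adjusted p = 0.0529). Leaving out 1 library at a time gave 3 to 4 members called with PKR siRNA 1, 2 to 4 with PKR siRNA 2, 5 between the siRNAs, 0 to 1 with 400 nM C16, 3 to 4 with 800 nM and 1 to 2 between the doses. Direction turned only in values that were not called: NRAS with PKR siRNA 2 (-0.05 to 0.13), ARID1A with 400 nM C16 (-0.01 to 0.08), and MYC (-0.09 to 0.10) and SOX9 (-0.23 to 0.04) between the doses. The cause was not tested. The replicate block kept every call, with 4, 3, 5, 0, 4 and 1 members called in the 6 comparisons. Deviations of libraries with the same number had r of -0.05 to 0.03. Whether such libraries share an origin is not given in the sources used here, and these values cannot decide it. For the 6 pathway and family lists 133 of 1296 counts moved by over 1.5 times, 126 of them counts of at most 5. The others lay in the RAS list (8 lower with PKR siRNA 2, 5 with DESeq2), the SWI/SNF list (6 lower between the siRNAs, 3 with DESeq2) and the MYC targets, of which DESeq2 called 4 higher in place of 8 with 400 nM C16 and 6 in place of 10 between the doses. GATA6 and KLF5, with at most 8 reads in a library, could not be resolved at this depth.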

Other observations

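Few of the genes that separate the classical from the basal-like subtype of pancreatic tumours reached the minimum mean of 10 in PANC-1. Of 24 classical genes 1 was tested in each table, AGR2, a protein disulfide isomerase of secretory cells. It was at 0.01 ± 0.087 with PKR siRNA 1 (adjusted p = 0.924 in limma), rose by 0.65 ± 0.087 with PKR siRNA 2, and fell by 0.79 on the log2 scale with 800 nM C16. Of 24 basal-like genes 5 were tested with the siRNAs and 3 with C16. PKR siRNA 1 raised the glucose transporter gene SLC2A1 by 0.87 ± 0.119 and lowered the protease gene CTSV (-0.74 ± 0.159), whereas C16 raised both at 400 nM, by 0.89 ± 0.211 and 0.79 ± 0.175. At 800 nM CTSV rose by 1.06 ± 0.175. PKR siRNA 2 lowered the EGF family ligand AREG (-2.59 ± 0.320) and KRT7 (-1.86 ± 0.368).

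Among the ductal markers EPCAM, an adhesion molecule of epithelial cells, fell with both siRNAs (-2.96 ± 0.236 and -3.14 ± 0.236) and rose by 0.74 ± 0.236 with 800 nM C16. KRT19 rose by 1.31 ± 0.049 and CDH1, which encodes E-cadherin, by 1.54 ± 0.242 with PKR siRNA 2, while KRT7 fell by 1.86. At 400 nM C16 KRT19 fell by 0.91 and CDH1 by 0.74, and MUC1 rose by 0.79 ± 0.256. At 800 nM KRT19 fell by 1.49 and CDH1 by 0.64. KRT8 fell by 0.97 with PKR siRNA 1. COL1A1, from the list of fibroblast and stellate markers, fell by 1.86 with PKR siRNA 1 and by 1.08 with 800 nM C16, and COL1A2 and DCN of that list were at 0 in every library. CD68, from the list of immune and endothelial markers, rose by 1.55 ± 0.123 and 1.10 ± 0.123 with the C16 doses. The 1 gene of that list tested with the siRNAs was called higher with both, by 0.58 with PKR siRNA 1 and 0.30 with PKR siRNA 2. The pan-leukocyte gene PTPRC was at 0 in every library.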
